A study of Mus musculus with 3 samples.

Results

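The matrix metalloproteinases, the ADAMTS proteases and the tissue inhibitors of metalloproteinases (TIMPs) were followed as 1 gene module in injured mouse muscle. Members were all gene symbols of the Mmp, Adamts and Timp families in the count tables that had at least 50 unique molecular identifiers (UMIs, each marking 1 captured transcript) in the kept cells. Of 45 symbols, 39 were members, 17 of 22 Mmp, 18 of 19 Adamts and 4 of 4 Timp genes, among 32285 features in all, of which 17358 reached 50 UMIs. The 6 symbols below that number were Mmp7 with 18 UMIs, Adamts13 with 16, Mmp24 with 15, Mmp20 with 4, Mmp21 with 3 and Mmp1b with 1. The single-cell RNA-seq libraries came from tibialis anterior muscles of C57/BL6J mice taken 4 days after barium chloride, a salt that kills muscle fibres, had been injected into the muscle. Young mice of 3 to 4 months and old mice of 24 to 26 months then received 3 injections of PBS, and a further set of old mice received 3 of recombinant METRNL (rMETRNL), a secreted cytokine-like protein. Each of these groups (young PBS, old PBS and old rMETRNL) was 1 library made from 3 pooled mice, so no test between groups was possible. All mice carried the injury, and the pooling left no value for single animals.

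MMPs are zinc-dependent proteases, most of them secreted as inactive precursors, that cut collagens, laminins, elastin and other proteins of the extracellular matrix. ADAMTS proteases cut matrix proteoglycans such as versican and aggrecan or trim procollagens, and TIMPs bind and block the active sites of both families. In regenerating muscle the matrix of the dead fibres is taken down and rebuilt, and fibro/adipogenic progenitors (FAPs), the connective tissue progenitors of muscle, and macrophages are known sources of these enzymes.

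Of the 22 Mmp genes, 9 lay side by side within 427.1 kb of chromosome 9 (chr9:7272514-7699585, GRCm38, GENCODE M21 annotation) in the order Mmp13, Mmp12, Mmp1b, Mmp3, Mmp10, Mmp8, Mmp27, Mmp20 and Mmp7. These neighbours had their highest levels in different cell classes, which is why the sequences before their start sites are shown. RefSeq promoter sequences (GRCm38.p6) matched 25 of the 39 members. The 250 bases before the start were searched on both strands for the AP-1 motif TGAGTCA (reverse complement TGACTCA), and the last 50 of them, on the gene's own strand, for TATAAA. Of 32851 promoters, 4.46% held the AP-1 motif, 2.63% held TATAAA and 0.234% held both. Of the 27 promoter entries of members, 4 (14.8%) held the AP-1 motif and 3 (11.1%) held both, and these were the 4 neighbours printed here, all on the plus strand, with the AP-1 motif and TATAAA in capitals. A match is a string of letters and no measured binding.
Mmp13 (chr9:7272264-7272513): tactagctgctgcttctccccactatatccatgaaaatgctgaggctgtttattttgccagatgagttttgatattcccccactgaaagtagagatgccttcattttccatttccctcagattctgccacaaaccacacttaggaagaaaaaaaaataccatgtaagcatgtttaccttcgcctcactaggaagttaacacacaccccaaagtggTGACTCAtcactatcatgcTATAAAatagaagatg
Mmp12 (chr9:7347124-7347373): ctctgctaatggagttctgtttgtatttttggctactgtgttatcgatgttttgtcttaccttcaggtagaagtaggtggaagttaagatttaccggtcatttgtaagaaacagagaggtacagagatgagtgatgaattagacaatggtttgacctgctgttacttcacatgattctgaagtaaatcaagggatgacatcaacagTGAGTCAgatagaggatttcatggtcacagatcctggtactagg
Mmp3 (chr9:7445572-7445821): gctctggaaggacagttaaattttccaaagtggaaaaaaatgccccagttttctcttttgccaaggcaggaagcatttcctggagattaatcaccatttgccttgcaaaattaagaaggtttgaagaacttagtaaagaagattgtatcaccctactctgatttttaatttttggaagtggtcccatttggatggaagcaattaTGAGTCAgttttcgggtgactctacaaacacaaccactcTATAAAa
Mmp10 (chr9:7502092-7502341): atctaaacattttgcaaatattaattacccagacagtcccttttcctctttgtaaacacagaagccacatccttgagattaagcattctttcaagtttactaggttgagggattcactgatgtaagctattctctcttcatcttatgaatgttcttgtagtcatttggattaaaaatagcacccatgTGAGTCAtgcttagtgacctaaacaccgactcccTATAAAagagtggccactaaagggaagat
The AP-1 motif began 35 bases before the start of Mmp13, 44 before Mmp12, 46 before Mmp3 and 63 before Mmp10. TATAAA began 16 bases before the start of Mmp13, 7 before Mmp3 and 29 before Mmp10, and was not in the last 50 bases before Mmp12. The 3 genes with both strings (Mmp13, Mmp3 and Mmp10) all had their highest level in tenocyte-like cells, and Mmp12 in macrophage/monocyte-like cells.

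The 3 libraries held 12168 to 14012 barcodes and 179295668 to 228966697 UMIs, and after filters 31592 cells were kept, with median UMIs per cell of 13752.5 to 15085. Between 58 and 80 barcodes were shared by any 2 libraries. Cells were clustered with the members left out of the genes used, and clusters were named from fixed markers, none of them a member. Classes with at least 50 cells in each library were compared, which gave 4823 FAP-like, 546 tenocyte-like, 370 pericyte/smooth muscle-like, 2443 endothelial-like, 960 muscle stem cell (MuSC)/myoblast-like, 767 myocyte-like, 18879 macrophage/monocyte-like, 1607 dendritic-like and 509 T/NK-like cells. In FAP-like cells all 12 FAP markers were over 2-fold above the other cells, and in macrophage/monocyte-like cells all 15 of theirs were. Depth was even between libraries in macrophage/monocyte-like cells (median 14071 to 14736.5 UMIs) and FAP-like cells (22262 to 26184). It was uneven in endothelial-like (3722.5 in old PBS, 11012 in young PBS) and myocyte-like cells (2218 in old PBS, 29493 in young PBS). It was also lowest in old PBS in pericyte/smooth muscle-like (5763 against 9492 in young PBS) and tenocyte-like cells (14480 against 20905).

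A level is given as CPM, the member's UMIs per 1000000 UMIs of that class in that library. UMIs count molecules and were not divided by gene length, so levels were set between classes and libraries and not between genes. Intervals are exact 95% intervals and cover counting error only, not the spread between mice, libraries or cells. In summed counts, fewer cells that use a gene and less RNA per cell cannot be told apart. A difference was called where 2 libraries differed at least 1.5-fold, and the share of all genes with 50 or more UMIs in the class that did so is given beside each count.

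The members were spread over the connective tissue, vessel and myeloid classes. Pooled over the libraries, 9 members had their highest level in FAP-like cells, 9 in tenocyte-like, 7 in pericyte/smooth muscle-like, 5 in endothelial-like, 4 in macrophage/monocyte-like, 3 in T/NK-like, 1 in dendritic-like and 1 in MuSC/myoblast-like cells, and none in myocyte-like cells. For 28 of the 39, the same class was highest in all 3 libraries.

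**Figure D1:**
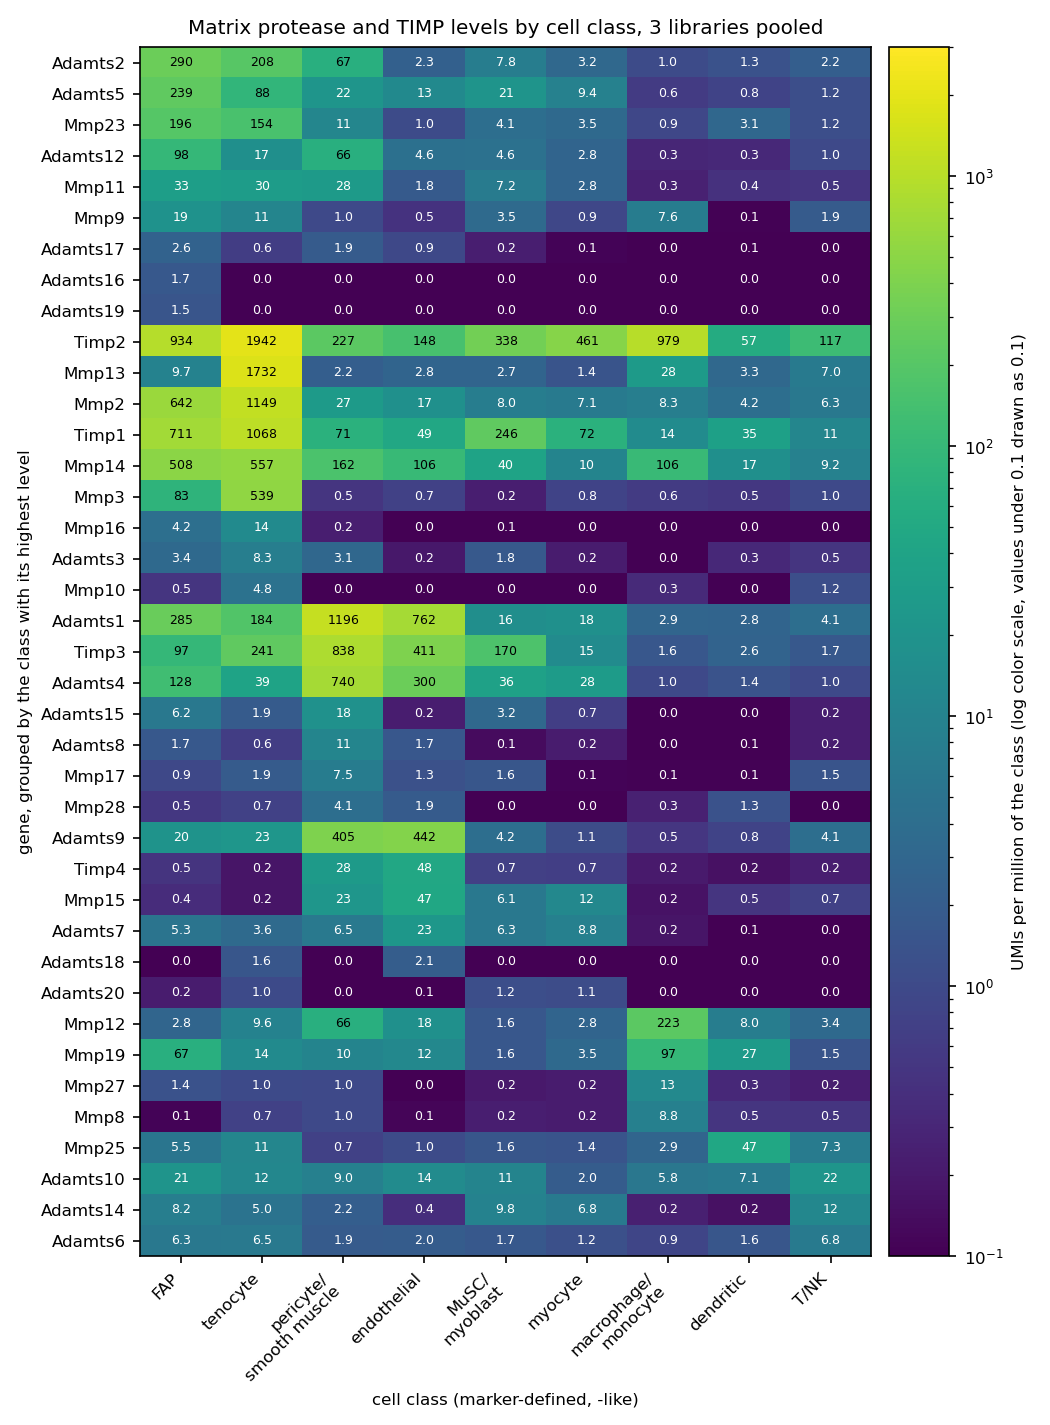
Level of each of the 39 members (vertical axis, grouped by the class where it is highest) in 9 marker-defined cell classes (horizontal axis), as CPM of the class with the 3 libraries pooled, on a log color scale. Timp2 is at 57.0 CPM or above in every class, whereas Mmp13 reaches 1732 CPM in tenocyte-like cells and at most 27.9 CPM elsewhere.

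Among the inhibitors, Timp2, which also helps MMP14 to activate MMP2 at the cell surface, was found in every class. Its level was 1942 CPM in tenocyte-like cells, 979 in macrophage/monocyte-like cells and lowest in dendritic-like cells (57.0 CPM). Timp1 stood at 1068 CPM in tenocyte-like cells and 711 in FAP-like cells. Timp3, the TIMP that binds to the matrix and blocks several ADAMTS proteases, stood at 838 CPM in pericyte/smooth muscle-like cells, 411 in endothelial-like cells, 241 in tenocyte-like cells, 169.7 in MuSC/myoblast-like cells and 1.62 in macrophage/monocyte-like cells. For Timp4, 81.9% of all UMIs lay in endothelial-like cells, at 48.1 CPM.

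The gelatinase Mmp2, which cuts denatured collagen, and the membrane-bound Mmp14 (MT1-MMP), an activator of MMP2 and a collagenase, were connective tissue genes. Mmp2 stood at 1149 CPM in tenocyte-like cells and 642 in FAP-like cells, and at no more than 27.4 CPM in any other class. Mmp14 stood at 557 CPM in tenocyte-like cells and 508 in FAP-like cells, with 106 to 162 CPM in the macrophage/monocyte-like, endothelial-like and pericyte/smooth muscle-like classes. The other gelatinase, Mmp9, was highest in FAP-like cells (19.3 CPM), which held 47.4% of its UMIs.

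The interstitial collagenase Mmp13 and the stromelysin Mmp3, an activator of other MMPs, were concentrated in a small number of tenocyte-like cells. Mmp13 was 62.0 times as high in tenocyte-like cells (1732 CPM) as in macrophage/monocyte-like cells (27.9 CPM), the class next to it. Of 546 tenocyte-like cells, 118 had an Mmp13 UMI and 14 held 50% of its UMIs. Mmp3 stood at 539 CPM in tenocyte-like cells and 82.5 in FAP-like cells, and 5 tenocyte-like cells held 50% of its UMIs there, 1 of them with 1528. These levels therefore rest on few cells, a spread that the counting intervals do not hold. Mmp10, the second stromelysin, was highest in the same class at 4.85 CPM, and 39.5% of its UMIs were in barcodes that the filters removed.

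Macrophage/monocyte-like cells held 97.5% of the UMIs of Mmp12, the macrophage elastase, 96.8% of those of the collagenase Mmp8, 94.3% of those of Mmp27 and 75% of those of Mmp19. Mmp12 stood at 223 CPM there. The class with the level next to it was pericyte/smooth muscle-like cells at 65.6 CPM, a value set by 1 cell of the young PBS library with 252 UMIs, all of that library's. Mmp19 stood at 97.0 CPM in macrophage/monocyte-like cells and 66.7 in FAP-like cells. Mmp25, a membrane-anchored MMP, was highest in dendritic-like cells with 47.4 CPM, against 11.3 in tenocyte-like cells.

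The remaining MMPs were low or shared between classes. Mmp23 stood at 196 CPM in FAP-like cells and 154 in tenocyte-like cells, and Mmp11 (stromelysin-3) at 32.8 and 30 CPM in the same 2 classes. Mmp15, a membrane-type MMP, was highest in endothelial-like cells (46.9 CPM). Mmp16 reached 14.0 CPM in tenocyte-like cells, and Mmp17 and Mmp28 reached 7.5 and 4.11 CPM in pericyte/smooth muscle-like cells.

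Of the ADAMTS proteases, 6 were highest in FAP-like cells. FAP-like cells held 91.5% of the UMIs of Adamts2, a procollagen N-propeptidase, and 92.3% of those of Adamts5, an aggrecanase. They also held 93.2% of the UMIs of Adamts12, 98.6% of those of Adamts16 and 98.5% of those of Adamts19, although the last 2 stood at 1.68 and 1.54 CPM only. Adamts17 was also highest there, at 2.56 CPM. The other procollagen N-propeptidases were highest elsewhere, Adamts3 in tenocyte-like cells (8.32 CPM) and Adamts14 in T/NK-like cells (11.9 CPM).

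Adamts1 and Adamts4, proteases of versican and aggrecan, were highest in the vessel wall. Adamts1 stood at 1196 CPM in pericyte/smooth muscle-like cells and 762 in endothelial-like cells, and Adamts4 at 740.0 and 300.4 CPM. Adamts9, also a versican protease, stood at 442 CPM in endothelial-like cells and 405 in pericyte/smooth muscle-like cells. Under a stricter cell filter Adamts1, Adamts4 and Timp3 became highest in endothelial-like cells. Adamts8 and Adamts15, neighbours on chromosome 9 (chr9:30942562-30963838 and chr9:30899155-30922452), were both highest in pericyte/smooth muscle-like cells, at 10.9 and 18.4 CPM. Adamts7 and Adamts18 were highest in endothelial-like cells (23.0 and 2.11 CPM), Adamts20 in MuSC/myoblast-like cells (1.20 CPM), and Adamts6 and Adamts10 in T/NK-like cells by a margin of at most 1.04-fold.

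The first comparison asked how the injured muscle of old mice differed from that of young mice, taken in FAP-like cells. Adamts1, Adamts4, Adamts5 and Mmp3 were higher in the old PBS library, and Mmp9 and the membrane-type Mmp16 were lower. Of 35 members with at least 50 UMIs in this class, 8 were at least 1.5-fold higher in old PBS than in young PBS, against 7.33% of all genes, and 5 were at least 1.5-fold lower, against 7.14%. With FAP cells taken instead as all kept cells with a Pdgfra UMI and no Ptprc UMI, whatever their cluster, 5 were higher and 5 lower. This choice is called the single-cell gate. The median log2 ratio was 0.26 over the members and -0.038 over all genes of the class. Both of the comparisons in this report use the same old PBS library.

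**Figure D2:**
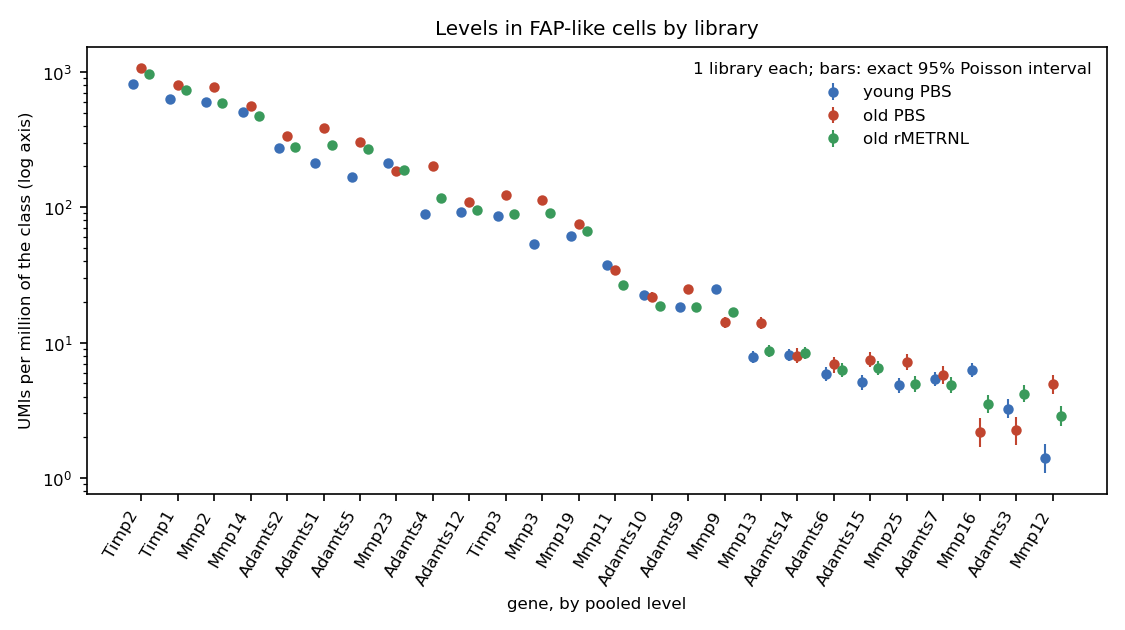
Level of members in FAP-like cells, by gene in order of pooled level (horizontal axis), as CPM of the class on a log axis. Each point is 1 library (young PBS, old PBS or old rMETRNL) and bars are exact 95% Poisson intervals. The old PBS point lies above both others for Adamts1, Adamts4, Adamts5 and Mmp3, and below both for Mmp16 and Mmp9.

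Adamts4 showed the widest gap among the members with over 50 CPM in FAP-like cells. It stood at 89.0 CPM for young PBS against 201 in old PBS and 117 with rMETRNL. The ratio of old PBS to young PBS was 2.26 (2.17 to 2.35), and no single cell held more than 0.891% of a library's Adamts4 UMIs. Thinned to 2000 UMIs a cell, 14.7% of young PBS, 25.3% of old PBS and 17.8% of old rMETRNL FAP-like cells had an Adamts4 UMI. Unthinned, these shares were 62.4%, 70.7% and 62.1%. In T/NK-like cells, taken as a class that should lack the gene, 0 to 0.562% had one after thinning, with median depths of 5086 to 6047 UMIs.

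Adamts1 stood at 213 CPM for young PBS against 385 in old PBS and 290 with rMETRNL, a ratio of 1.81 (1.76 to 1.86) with age. Adamts5, its neighbour on chromosome 16 (chr16:85793827-85803113 for Adamts1 and chr16:85856173-85901828 for Adamts5), stood at 167, 304 and 267 CPM in the same order, a ratio of 1.82 (1.77 to 1.88). In both genes young PBS was the low library and the other two lay above it. Mmp3 stood at 54.0, 113 and 91.2 CPM, a ratio of 2.09 (1.98 to 2.20), and 78 of the 4823 FAP-like cells held 50% of its UMIs. With the single-cell gate the Mmp3 ratio was 1.28, not past 1.5-fold. Endothelial markers, 12 in all and none at 0, summed to 20.5, 34.6 and 24.3 CPM in FAP-like cells, in the order of the Adamts1, Adamts4 and Timp3 levels. Pericyte/smooth muscle markers, 11 in all and none at 0, summed to 549, 389 and 394 CPM there, highest in young PBS. The part of either list in these values was not tested.

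The abundant members differed less. Timp2 stood at 807 CPM for young PBS against 1069 in old PBS and 971 with rMETRNL, a ratio of 1.33 (1.31 to 1.34) with age. Timp1 stood at 630.1, 797 and 735 CPM (1.27, 1.24 to 1.29) and Timp3 at 86.1, 123 and 89.8 CPM (1.43, 1.37 to 1.5). All 3 inhibitors were highest in the old PBS library. Mmp2 stood at 599, 777 and 594 CPM, a ratio of 1.3 (1.28 to 1.32). Mmp14 stood at 507, 564 and 469.8 CPM, a ratio of 1.11 (1.09 to 1.13).

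Adamts2 stood at 274, 336 and 276 CPM (1.23, 1.20 to 1.26) and Adamts12 at 91.6, 109.8 and 96.1 CPM (1.20, 1.15 to 1.25). Mmp23 was the exception among the 10 members with the highest level, at 213 CPM for young PBS against 184 in old PBS and 188 with rMETRNL (0.87, 0.84 to 0.89). Mmp19 (61.6 to 74.7 CPM), Mmp11 (26.8 to 37.6), Adamts10 (18.7 to 22.7) and Adamts9 (18.3 to 25.0) stayed within 1.5-fold in both comparisons. So did Adamts14 (8.01 to 8.40 CPM), Adamts6 (5.85 to 6.90), Adamts15 (5.10 to 7.5), Mmp25 (4.85 to 7.22), Adamts7 (4.89 to 5.79), Mmp27 (1.28 to 1.56), Mmp17 (0.858 to 1.06) and Mmp28 (0.413 to 0.606). Without the cell with the most UMIs in each library, Mmp27 went from 1.20 to 1.81 (1.15 to 2.86) with age and Adamts15 from 1.47 to 1.56 (1.29 to 1.88), both past 1.5-fold, and 1 young PBS cell held 37.7% of the Mmp27 UMIs.

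Members lower in old PBS than in young PBS were fewer and less abundant. Mmp9 stood at 25.0 CPM for young PBS against 14.2 in old PBS and 16.9 with rMETRNL, a ratio of 0.57 (0.51 to 0.63). Mmp16 stood at 6.30, 2.19 and 3.55 CPM, a ratio of 0.35 (0.26 to 0.45). Adamts19 stood at 1.74, 0.668 and 1.93 CPM (0.38, 0.23 to 0.62). The remaining 2, Mmp10 (0.44) and Timp4 (0.64), had 61 and 58 UMIs in all and intervals that held 1. Timp4 was within 1.5-fold under a looser cell filter and without the cell with the most UMIs in each library.

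The other members higher in old PBS were at 14 CPM or below. Mmp13 stood at 7.85 CPM for young PBS against 14.0 in old PBS and 8.64 with rMETRNL (1.78, 1.55 to 2.05). With the single-cell gate its ratio with age was 0.78, in the other direction. A single cell held 47.3% of its old PBS UMIs and another 40.9% of its old rMETRNL UMIs, and without the cell with the most UMIs in each library the ratio with age was 1.10. Tenocyte markers, 9 in all and none at 0, summed to 545, 614 and 391 CPM in the FAP-like cells of the same libraries, highest in old PBS, and their part in the Mmp13 values was not tested. Mmp12 stood at 1.40, 4.96 and 2.88 CPM (3.53, 2.63 to 4.79), with 37.2% of its old PBS UMIs in 1 cell and a ratio of 2.32 without the cell with the most UMIs in each library. Adamts16 stood at 1.17, 2.70 and 1.49 CPM (2.31, 1.63 to 3.30) and Adamts8 at 1.6, 2.64 and 1.17 CPM (1.65, 1.20 to 2.29). Macrophage/monocyte markers, 15 in all and none at 0, summed to 765, 860.2 and 802 CPM in the FAP-like cells of young PBS, old PBS and old rMETRNL, and their part in the Mmp12 values was not tested.

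The second comparison asked what rMETRNL did in old muscle. In FAP-like cells 4 of the 35 members were at least 1.5-fold higher in old rMETRNL than in old PBS, against 5.06% of all genes, and 6 were at least 1.5-fold lower, against 4.96%. With the single-cell gate, 5 were higher and 4 lower. The median log2 ratio was -0.22 over the members and 0.016 over all genes. Adamts4 was the most abundant of those that were lower, at 0.58 (0.56 to 0.60) of the old PBS level. The other 5 were Mmp13 (0.62, 0.54 to 0.71), Mmp12 (0.58, 0.46 to 0.74), Adamts17 (0.42, 0.30 to 0.59), Adamts8 (0.44, 0.31 to 0.63) and Adamts16 (0.55, 0.40 to 0.77). Without the cell with the most UMIs in each library, Mmp13 was at 0.69 and Mmp12 at 0.88, neither past 1.5-fold. Mmp13 was at 2.09 with the single-cell gate, and Mmp12 at 1.004 with the called doublets kept. Adamts17 stood at 3.45 CPM for young PBS against 3.08 in old PBS and 1.3 with rMETRNL.

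The 4 members that were higher with rMETRNL were all under 5 CPM in old PBS. Mmp16 was 1.62 times as high (1.21 to 2.18) and Adamts19 2.89 times (1.78 to 4.89). Adamts3 stood at 3.25 CPM for young PBS against 2.26 in old PBS and 4.2 with rMETRNL, a ratio of 1.86 (1.41 to 2.48) with rMETRNL. Mmp10 stood at 0.574, 0.254 and 0.563 CPM and its ratio of 2.21 had an interval of 0.97 to 5.66. With the called doublets kept it was 0.77, in the other direction. Of the 10 most abundant members, 9 lay within 1.5-fold and 8 of these were lower with rMETRNL. They ran from Adamts1 at 0.75 (0.73 to 0.77) and Mmp2 at 0.76 (0.75 to 0.78) through Adamts2 (0.82), Mmp14 (0.83), Adamts12 (0.88) and Adamts5 (0.88) to Timp2 (0.91) and Timp1 (0.92). Mmp23 was at 1.02 (0.99 to 1.05). Mmp3 was at 0.81 (0.77 to 0.85) and Timp3 at 0.73 (0.70 to 0.76).

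FAP-like cells were not uniform for these genes, and their sub-clusters were drawn in different shares from the libraries. Adamts5 stood at 1048 CPM in a sub-cluster led by Pi16, Sema3c and Ccn3 (122 young PBS, 154 old PBS and 214 old rMETRNL cells) and at 89.4 to 506 CPM in the others. Adamts16 (13.6 CPM), Adamts19 (8.20 CPM) and Adamts15 (25.5 CPM) were highest in the same sub-cluster. Timp2 reached 2375 CPM in a sub-cluster led by Myoc and Gdf10 and 2356 in the one led by Pi16, Sema3c and Ccn3. Timp1 reached 1128 CPM in a sub-cluster led by Inhba and Il11 and 1005 in one led by Anln and Mxd3, genes of dividing cells. Adamts4 was highest in a sub-cluster led by Nrep and Il33 (326 CPM), and Adamts1 (599 CPM) and Mmp2 (1268 CPM) in one led by Hmcn2 and Hsd11b1, which held 12 young PBS, 73 old PBS and 43 old rMETRNL cells.

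Each FAP-like sub-cluster was then given a fixed weight, its share of the class's UMIs pooled over the libraries, in every library. With these fixed sub-cluster weights, the ratio of old PBS to young PBS was 1.82 for Adamts4, 1.51 for Adamts5, 1.84 for Mmp3 and 0.34 for Mmp16. For Adamts1 it was 1.44, below 1.5-fold. Adamts5 was higher in old PBS in 9 of 9 sub-clusters with enough UMIs, Adamts1 and Adamts4 in 8 of 9, Mmp3 in 6 of 9 and Mmp16 in 0 of 7. Adamts4 was lower with rMETRNL in all 9, with a ratio of 0.71 at the fixed weights, which is not past 1.5-fold.

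Genes that act on these enzymes were counted as lists in FAP-like cells. Of 24 activators and inhibitors of matrix proteolysis that reached 50 UMIs, 7 were at least 1.5-fold higher in old PBS than in young PBS and 1 was lower, against 7.33% and 7.14% of all genes. They were Plau (1.59), the urokinase that makes plasmin, the protease inhibitor Serpine2 (1.75), the proprotein convertase Pcsk6 (2.46), Spock2 (1.69), Adamtsl2 (4.15), Adamtsl5 (1.55) and Htra3 (1.94), and the lower one was A2m (0.18). With rMETRNL, Serpine2 (0.64), Spock2 (0.55) and Adamtsl2 (0.25) were lower and A2m (3) was higher, against 4.96% of all genes lower and 5.06% higher. Of 15 other surface and matrix proteases, among them Adam17, Bmp1 and Ctsk, none was past 1.5-fold in either comparison. Of 7 procollagen and proteoglycan partners, Pcolce2 (1.72) and Dcn (1.65) were higher in old PBS, and Eln was lower with rMETRNL (0.53).

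In macrophage/monocyte-like cells Mmp19 and Mmp12 were higher and Mmp9 was lower in old PBS than in young PBS. Mmp12, though, was at 1.01 with fixed sub-cluster weights in these cells. Their sub-clusters were drawn in different shares from the libraries, and the one led by Slfn1 and Ifit2 held 1185 young PBS, 149 old PBS and 577 old rMETRNL cells. Of 29 members with at least 50 UMIs there, 8 were at least 1.5-fold higher, against 6.58% of all genes, and 2 were at least 1.5-fold lower, against 6.84%. With rMETRNL 2 members were at least 1.5-fold higher than in old PBS, against 5.98% of all genes, and 5 were at least 1.5-fold lower, against 3.90%. The direction of these counts depended on how cells were chosen. The single-cell gate here took all kept cells with a Cd68 UMI and no Pdgfra UMI, whatever their cluster. With it 5 were higher and 9 lower with age, and 8 higher and 2 lower with rMETRNL. The median log2 ratio of the members was 0.34 with age and -0.11 with rMETRNL, beside -0.0042 and 0.046 over all genes.

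**Figure D3:**
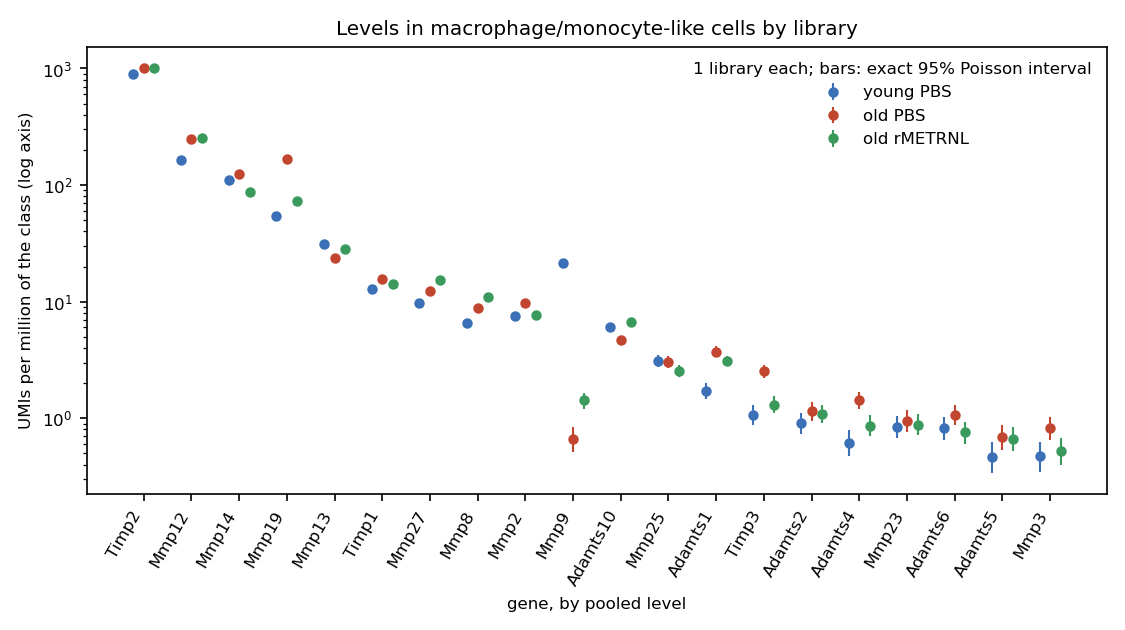
Level of members in macrophage/monocyte-like cells, by gene in order of pooled level (horizontal axis), as CPM of the class on a log axis. Each point is 1 library and bars are exact 95% Poisson intervals. Mmp19 is at 167 CPM in old PBS against 54.7 and 72.5 in the other libraries, and Mmp9 at 21.5 CPM for young PBS against 0.664 and 1.42.

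Mmp19, which cuts basement membrane proteins, stood at 54.7 CPM for young PBS against 167 in old PBS and 72.5 with rMETRNL. Its ratio was 3.05 (2.96 to 3.15) with age and 0.43 (0.42 to 0.45) with rMETRNL, and no single cell held more than 1.54% of a library's UMIs. Thinned to 2000 UMIs a cell, 7.05% of young PBS, 19.0% of old PBS and 8.48% of old rMETRNL cells had an Mmp19 UMI, and unthinned 25.5%, 47.6% and 29.7%. In T/NK-like cells 0 to 0.562% had one after thinning. The old PBS library stood apart from the other two on each of these measures.

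Mmp12 stood at 163 CPM for young PBS against 248 in old PBS and 253 with rMETRNL. The ratio was 1.52 (1.49 to 1.55) with age and 1.02 (1 to 1.04) with rMETRNL, so both old libraries lay above the young one. Only 128 of 18879 cells, 0.678%, held 50% of its UMIs. Mmp12 was higher in old PBS in 11 of 14 sub-clusters.

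Mmp9 stood at 21.5 CPM for young PBS against 0.664 in old PBS and 1.42 with rMETRNL. The ratio was 0.031 (0.024 to 0.040) with age and 2.13 (1.59 to 2.90) with rMETRNL. Its UMIs were held by few cells, 250 of 18879, and 4 cells held 50% of them. A sub-cluster of 48 cells (34 young PBS, 5 old PBS and 9 old rMETRNL) led by Ctsk, Acp5 and Ocstamp, genes known from osteoclasts, held 67.6% of the class's Mmp9 UMIs. The macrophage/monocyte markers were not raised in this sub-cluster, which was kept in the class. Without this sub-cluster and the one led by Retnla and Ear2, the ratio with age was 0.097. Of 8 neutrophil markers, 1 or 2 were at 0 in each library, and the list summed to 53.6 to 62.5 CPM in these cells.

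The other abundant members of macrophage/monocyte-like cells stayed within 1.5-fold in both comparisons. Timp2 stood at 902 CPM for young PBS against 1013 in old PBS and 1017 with rMETRNL, with ratios of 1.12 (1.11 to 1.13) and 1 (1 to 1.01). Mmp14 stood at 109.5, 124 and 87.3 CPM (1.13, 1.10 to 1.16, and 0.70, 0.69 to 0.72). Mmp13 stood at 31.4, 23.8 and 28.5 CPM (0.76, 0.72 to 0.80, and 1.20, 1.14 to 1.27). Of these, Mmp14 was lowest in old rMETRNL and Mmp13 in old PBS. Timp1 stood at 12.9, 15.5 and 14.3 CPM (1.21 and 0.92), and Mmp2 at 7.49, 9.78 and 7.65 CPM (1.31 and 0.78).

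Mmp27 stood at 9.80 CPM for young PBS against 12.4 in old PBS and 15.4 with rMETRNL (1.27, 1.16 to 1.38, and 1.24, 1.15 to 1.34). Mmp8 stood at 6.57, 8.83 and 10.9 CPM (1.34, 1.21 to 1.49, and 1.23, 1.13 to 1.35). Both of these chromosome 9 neighbours were lowest in young PBS and highest in old rMETRNL.

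The remaining calls in macrophage/monocyte-like cells were at 4 CPM or below. With age they were Adamts1 (1.71 CPM for young PBS against 3.72 in old PBS and 3.1 with rMETRNL, ratio 2.18), Timp3 (1.07, 2.51 and 1.31 CPM, 2.35), Adamts4 (0.616, 1.43 and 0.863 CPM, 2.32), Adamts9 (0.267, 0.705 and 0.554 CPM, 2.64), Mmp3 (0.473, 0.818 and 0.527 CPM, 1.73) and Timp4 (0.0719, 0.388 and 0.182 CPM, 5.40), with Adamts7 lower (0.57, 0.28 to 1.13). With rMETRNL, Timp3 (0.52), Adamts4 (0.60), Mmp3 (0.64) and Timp4 (0.47) were lower and Mmp28 was higher (1.54, 0.85 to 2.87). With the single-cell gate Mmp3 was at 2.42 and Timp3 at 1.01 with rMETRNL, no longer lower. The 6 genes higher with age, all of connective tissue and vessel classes, were also higher in old PBS in one or more of the classes where they are abundant. All 6 were highest in a sub-cluster of low depth (median 1985 UMIs) led by Gm26917, Lars2 and AY036118, which was kept in the class. It had 161 young PBS, 220 old PBS and 200 old rMETRNL cells. It held 4 to 15 UMIs of each gene, at most 7.69% of the gene's UMIs in the class. The part of free RNA in these low counts was not tested. Endothelial markers, 12 in all and none at 0, summed to 31.5, 34.1 and 33.6 CPM in the macrophage/monocyte-like cells of young PBS, old PBS and old rMETRNL, and FAP markers to 683, 436 and 556 CPM. Adamts10, Mmp25, Adamts2, Mmp23, Adamts6, Adamts5, Mmp10, Adamts12, Mmp11, Adamts14 and Mmp15, at 0.144 to 6.69 CPM, were within 1.5-fold in both comparisons. Of these, Adamts5 was at 1.504 with age and Mmp10 at 1.54 (0.89 to 2.73) with rMETRNL without the cell with the most UMIs in each library.

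Sub-clusters of macrophage/monocyte-like cells differed widely in these genes. Mmp12 stood at 3116 CPM in 338 cells led by Retnla, Ear2 and Dcstamp, which held 36.9% of its UMIs, at 3612 CPM for young PBS against 2176 in old PBS and 3810 with rMETRNL. Mmp19 was also highest there (627 CPM). These cells numbered 68, 142 and 128 in young PBS, old PBS and old rMETRNL, and the macrophage/monocyte markers were not raised in this sub-cluster either, which was also kept in the class. In the sub-cluster led by Atp6v0d2, Gpnmb and Spp1, Mmp12 stood at 316 CPM, Timp2 at 1417 CPM and Mmp27 at 21.9 CPM. In that led by Ly6c2, a monocyte gene, Timp2 was at 235 CPM and Mmp12 at 28.3 CPM. Mmp14 (197 CPM) and Mmp13 (46.1 CPM) were highest in the sub-cluster led by Dnase1l3 and Il10.

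**Figure D4:**
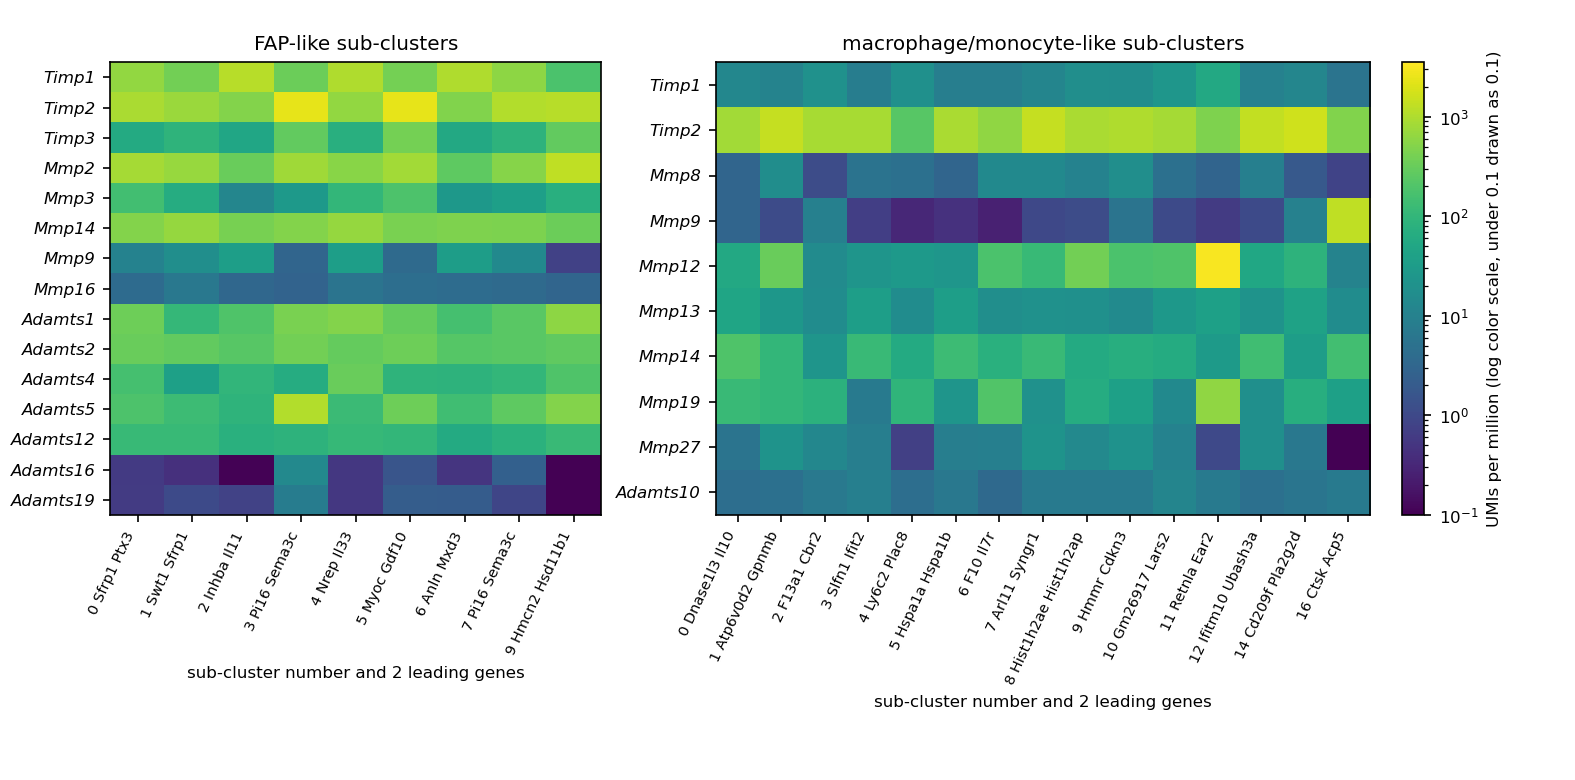
Levels of selected members (vertical axis) in the sub-clusters of FAP-like cells (left) and macrophage/monocyte-like cells (right), named by number and 2 leading genes (horizontal axis), as CPM on a log color scale with libraries pooled. Adamts5 stands out in FAP-like sub-cluster 3 (1048 CPM), Mmp12 in macrophage/monocyte-like sub-cluster 11 (3116 CPM) and Mmp9 in sub-cluster 16 (1276 CPM).

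The higher Mmp19 level of old PBS was found across these sub-clusters. In the sub-cluster led by Dnase1l3 and Il10 it stood at 60.6 CPM for young PBS against 189 in old PBS and 72.0 with rMETRNL. In that led by Atp6v0d2 and Gpnmb it stood at 70.5, 153 and 65.1 CPM. Mmp19 was higher in old PBS than in young PBS in 13 of 15 sub-clusters and higher with rMETRNL in 1 of 14. With fixed sub-cluster weights, its ratios were 2.25 and 0.50. Of the lists of genes that act on matrix proteases, 1 of 20 activators and inhibitors was higher (Adamtsl5, 1.61, 1.37 to 1.89) and 1 lower (Adamtsl1, 0.60, 0.29 to 1.18) in old PBS, against 6.58% and 6.84% of all genes, and the Adamtsl1 interval held 1. With rMETRNL none was past 1.5-fold, against 5.98% higher and 3.90% lower. Of 14 other surface and matrix proteases, none was past 1.5-fold in either comparison. Of the 7 partners, Dcn (1.78) was higher in old PBS, and with rMETRNL Vcan (1.62) was higher and Eln (0.60) lower.

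In tenocyte-like cells Timp2 stood at 1781 CPM for young PBS against 2122 in old PBS and 2023 with rMETRNL, and Mmp13 at 2049.5, 1556 and 1487 CPM. Mmp2 stood at 1026, 1546 and 1086 CPM, with a ratio of 1.51 (1.44 to 1.58) with age. Of 25 members with at least 50 UMIs, 3 were higher and 5 lower in old PBS than in young PBS, against 17.3% of all genes past 1.5-fold in either direction. With rMETRNL 7 were higher and 2 lower than in old PBS, against 14.6%. Adamts4 stood at 34.8 CPM for young PBS against 62.9 in old PBS and 32.2 with rMETRNL (1.81, 1.42 to 2.30, and 0.51, 0.40 to 0.66). Adamts5 ran the other way from FAP-like cells, at 120.1, 62.0 and 68.2 CPM (0.52, 0.42 to 0.63, with age). The other calls with intervals that left out 1 were Adamts12 (0.56), Mmp10 (0.10, 2 and 42 UMIs) and Mmp12 (0.21, 6 and 61 UMIs) with age, and Adamts10 (1.82), Mmp9 (2.74) and Mmp12 (3.04) with rMETRNL, each at 20 CPM or below. A single young PBS cell held 45.2% of the Mmp10 UMIs and another 85.2% of the Mmp12 UMIs. Without the cell with the most UMIs in each library, Mmp12 was at 1.20 (0.32 to 4.00) with age, Mmp10 had 0 UMIs in old PBS and 23 in young PBS, and Mmp2 was at 1.496, just under 1.5-fold. Mmp13 then went from 0.76 to 0.66 (0.63 to 0.69) with age, past 1.5-fold. Macrophage/monocyte markers summed to 1969, 3439 and 2390 CPM in these cells, and their part in the Mmp12 values was not tested.

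Endothelial-like and pericyte/smooth muscle-like cells shared the higher level of Adamts1, Adamts4 and Timp3 in old PBS. In endothelial-like cells 8 of 21 members were higher and 4 lower in old PBS than in young PBS, against 19.5% of all genes, and 5 were higher and 5 lower with rMETRNL, against 15.0%. In pericyte/smooth muscle-like cells 5 of 16 were higher and 4 lower with age, against 28.4%, and 1 was higher and 2 lower with rMETRNL, against 16.6%. Adamts4 stood at 189 CPM for young PBS against 507 in old PBS and 278 with rMETRNL among endothelial-like cells (2.68, 2.52 to 2.84, and 0.55, 0.52 to 0.58). It stood at 498, 1168 and 709 CPM in pericyte/smooth muscle-like cells (2.34, 2.15 to 2.56, and 0.61, 0.56 to 0.66). In both classes the old PBS library was the highest.

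Adamts1 stood at 608, 942 and 793 CPM in endothelial-like cells (1.55, 1.49 to 1.61) and at 849.7, 1735 and 1212 CPM in pericyte/smooth muscle-like cells (2.04, 1.91 to 2.19). Timp3 stood at 285, 531 and 451 CPM in endothelial-like cells (1.86, 1.77 to 1.96) and at 633, 1111 and 885 CPM in pericyte/smooth muscle-like cells (1.76, 1.62 to 1.91). Adamts9 stood at 377, 573 and 423 CPM in endothelial-like cells (1.52, 1.45 to 1.59). A list of 12 early-response and heat-shock genes, chosen after the data were seen, also summed higher in old PBS in these classes. It stood at 9626, 12846 and 10619 CPM in endothelial-like and 12411, 19137 and 16294 CPM in pericyte/smooth muscle-like cells, and at 9066, 9030 and 9101 CPM in FAP-like cells. Its part in these results was not tested, nor was that of the lower depth of old PBS endothelial-like and pericyte/smooth muscle-like cells.

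Timp4 showed the largest endothelial-like difference of the inhibitors, with 25.8 CPM for young PBS against 100.6 in old PBS and 37.3 with rMETRNL (3.90, 3.35 to 4.55, and 0.37, 0.33 to 0.42). Mmp14 went the other way, at 109.5, 63.6 and 127 CPM (0.58, 0.52 to 0.65, and 2, 1.79 to 2.24). Adamts18 (0.17) was lower and Adamts5 (2.68) higher with age, while Mmp2 (0.66) was lower and Adamts7 (1.93) and Adamts12 (2.54) were higher with rMETRNL. Mmp12 (6, 424 and 36 UMIs) and Mmp19 (35, 240 and 40 UMIs) were also past 1.5-fold in both comparisons. A single old PBS cell held 402 of the 424 Mmp12 UMIs and a single cell 182 of the 240 Mmp19 UMIs. Without the cell with the most UMIs in each library, Mmp12 was at 6.63 with age and 0.88 with rMETRNL and Mmp19 at 3.12 and 0.35. Mmp2 with rMETRNL was then at 0.67, just within 1.5-fold, and Adamts7 with age became lower past 1.5-fold. Macrophage/monocyte markers, 15 in all and none at 0, summed to 724, 1319 and 1069 CPM in endothelial-like cells, highest in old PBS, and their part in the Mmp12 and Mmp19 values was not tested. In pericyte/smooth muscle-like cells the other calls with age whose intervals left out 1 were Adamts5 (1.91), Adamts2 (0.42), Mmp15 (0.50), Adamts12 (0.64) and Mmp12 (0.026, the single young PBS cell). With rMETRNL it was Mmp11 (0.39). Without the cell with the most UMIs in each library, Adamts9 and Mmp11 with age became higher past 1.5-fold in this class. FAP markers, 12 in all with 0, 1 and 2 at 0, summed to 2356, 1757 and 2301 CPM in young PBS, old PBS and old rMETRNL pericyte/smooth muscle-like cells, lowest in old PBS as Adamts2 and Adamts12 were, and their part in these values was not tested.

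**Figure D5:**
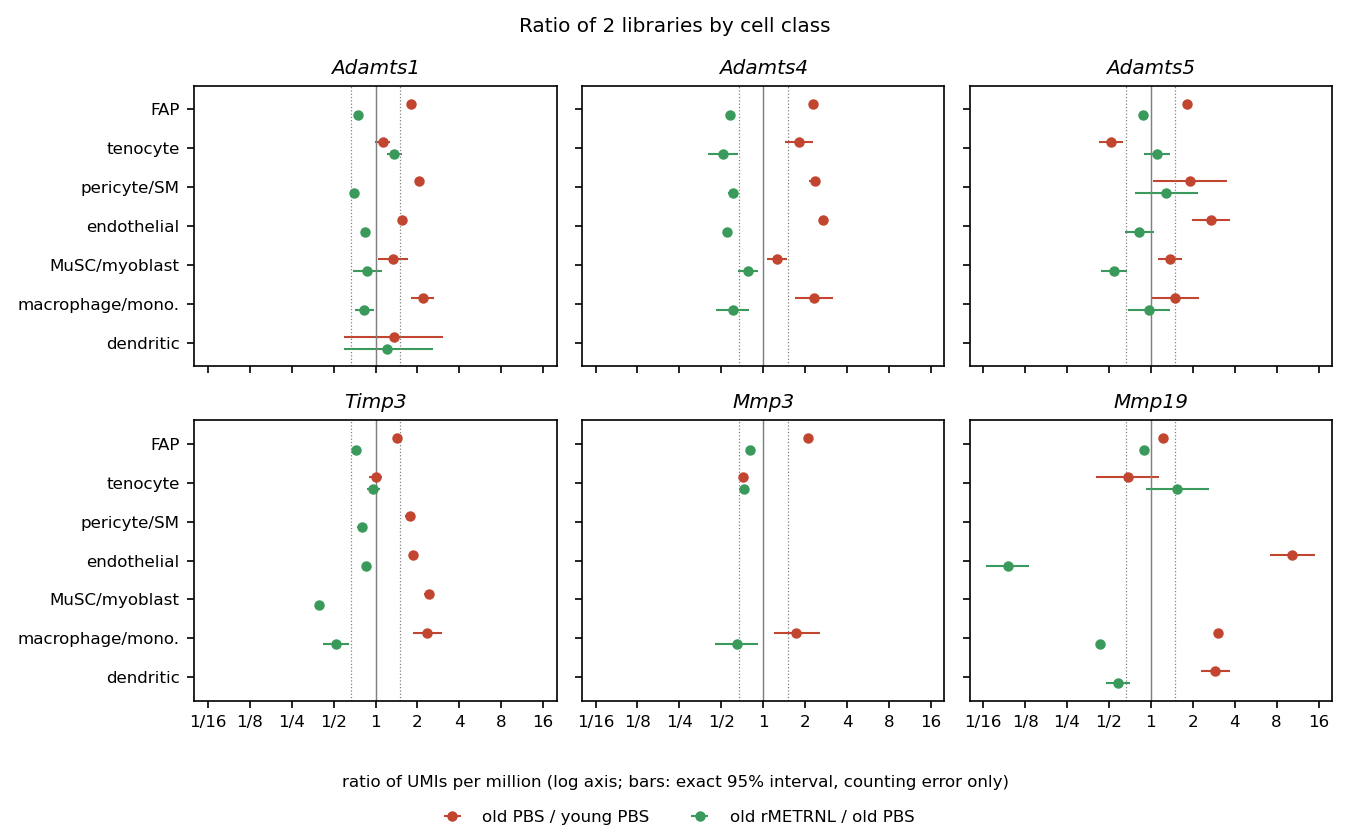
Ratio of 2 libraries (horizontal axis) in 7 cell classes (vertical axis; myocyte-like and T/NK-like cells are not drawn) for Adamts1, Adamts4, Adamts5, Timp3, Mmp3 and Mmp19, on a log axis with exact 95% intervals for counting error. Red points are old PBS over young PBS, green points old rMETRNL over old PBS, and dotted lines mark 1.5-fold in either direction. For Adamts4 the red points lie above 1 and the green points below 1 in the 6 classes drawn, whereas myocyte-like cells had 0.70 and 1.04, and 1 cell held 75.8% of the old PBS Mmp19 UMIs of endothelial-like cells.

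In MuSC/myoblast-like cells Timp3 stood at 138 CPM for young PBS against 331 in old PBS and 130.3 with rMETRNL (2.40, 2.25 to 2.57, and 0.39, 0.37 to 0.42), and 1 cell held 8.23% of the old PBS UMIs. Timp2 stood at 346, 335 and 332 CPM and Timp1 at 222, 329 and 233 CPM. Of 22 members, 3 were higher and 1 lower with age, against 10.7% of all genes, and 1 was higher and 5 lower with rMETRNL, against 9.71%. Mmp9 stood at 2.76, 7.42 and 2.54 CPM (2.69 and 0.34). Adamts15 was at 0.26 with age, and Adamts5 (0.54), Adamts7 (0.64) and Mmp13 (0.25) were lower with rMETRNL. A single old PBS cell held 71.4% of the 21 Mmp13 UMIs, and without the cell with the most UMIs in each library the ratio was 0.81 (0.27 to 2.66), not past 1.5-fold. In these cells FAP markers summed to 581, 639.7 and 522 CPM and endothelial markers, 12 in all and none at 0, to 11.7, 23.2 and 12.2 CPM, the latter highest in old PBS as Timp3 was. Their part in the Timp3 values was not tested.

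Myocyte-like cells were drawn from their clusters in different shares in each library, so their values compare unlike mixtures of cells. In young PBS 87 of 121 came from a cluster led by Myh3, the embryonic myosin of new fibres. In old PBS 442 of 467, and in old rMETRNL 130 of 179, came from one led by Ckm and Myl1, genes of mature fibres. Timp2 stood at 559, 269 and 512 CPM, Timp1 and Adamts4 were the next members by level at 71.6 and 28.1 CPM pooled, and 2 of 11 members were higher and 4 lower with age, against 50.4% of all genes. With rMETRNL 4 were higher and 5 lower, against 41.4%. Intervals left out 1 with age for Timp2 (0.48), Mmp2 (2.48), Mmp14 (2.73), Adamts7 (0.28), Adamts14 (0.47) and Mmp15 (0.50). With rMETRNL they did so for Timp2 (1.91), Mmp2 (0.31), Mmp15 (2.11), Adamts1 (0.41) and Timp3 (0.56, or 0.28 without the cell with the most UMIs in each library).

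In dendritic-like cells, as in macrophage/monocyte-like cells, Mmp19 was highest in old PBS. It stood at 15.7 CPM for young PBS against 45.5 in old PBS and 26.5 with rMETRNL (2.90, 2.29 to 3.68, and 0.58, 0.47 to 0.71). Mmp25 stood at 30.4, 70.3 and 49.7 CPM (2.31, 1.94 to 2.76, with age) and Timp1 at 27.4, 59.9 and 27.2 CPM (2.18, 1.81 to 2.64, and 0.45, 0.38 to 0.55). Timp2 stood at 57.0, 77.1 and 43.9 CPM, with a ratio of 0.57 (0.49 to 0.67) with rMETRNL. For all 4 the old PBS library was the highest. Macrophage/monocyte markers, 15 in all and none at 0, summed to 3341, 4030.3 and 2839 CPM in these cells, also highest in old PBS, and their part in these values was not tested. Mmp12 was at 0.58 with age and Mmp14 at 0.56 with rMETRNL. Of 11 members, 4 were higher and 2 lower with age, against 14.4% of all genes, and 1 was higher and 4 lower with rMETRNL, against 12%. In T/NK-like cells only Adamts10 and Timp2 reached 50 UMIs. Neither was past 1.5-fold in either comparison, against 14.9% and 16% of all genes, and Timp2 stood at 104, 131 and 118 CPM. Its ratio with age went from 1.27 to 1.52 (1.18 to 1.98) without the cell with the most UMIs in each library. Macrophage/monocyte markers summed to 2700.3 to 3055 CPM in T/NK-like cells, and their part in the Timp2 value was not tested.

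The balance of inhibitor to protease transcripts, taken as sums, differed between classes. In FAP-like cells the UMIs of the 4 Timp genes over those of the Mmp members were 1 for young PBS against 1.11 in old PBS and 1.22 with rMETRNL. The Mmp sum there was 1521, 1794 and 1476 CPM, the Adamts sum 911, 1423 and 1119 CPM and the Timp sum 1524, 1990.4 and 1797 CPM. All 3 families were highest in old PBS. With the Adamts members added to the proteases, the FAP-like ratio was 0.63, 0.62 and 0.69, not higher in old PBS than in young PBS. In tenocyte-like cells the ratio was 0.67, 0.75 and 0.90, below 1 in every library. In macrophage/monocyte-like cells it was 2.24, 1.72 and 2.14, with an Mmp sum of 409, 599.97 and 482 CPM. Endothelial-like cells had Timp over Mmp ratios of 2.55, 3.45 and 3.30, and 1 cell held 584 of the 1504 Mmp UMIs in old PBS. Without the cell with the most Mmp UMIs in each library these ratios were 2.58, 5.63 and 3.35. Pericyte/smooth muscle-like cells had ratios of 2.07, 5.55 and 4.62, and 1 cell held 308 of the 799 Mmp UMIs in young PBS. Without such cells the ratios were 3.31, 5.66 and 4.82. With all cells and the Adamts members added, they were 0.34, 0.37 and 0.39 in endothelial-like cells and 0.40, 0.37 and 0.43 in pericyte/smooth muscle-like cells. Transcript sums say nothing of how much active enzyme was present.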

How the data were processed

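The authors deposited, for each library, a filtered matrix of UMI counts (genes by barcodes), not normalized, made with Cell Ranger against mm10. The submitters' notes name versions 5.0.0 and 3.1.0, and other sources differ. The members and gene lists were chosen with earlier results of these data known. Barcodes with under 500 genes or over 10% mitochondrial UMIs were removed, as were the barcodes with the highest Scrublet scores (0.8% per 1000 barcodes), since the automatic threshold called 0. This kept 10293 young PBS, 9946 old PBS and 11353 old rMETRNL cells. For clustering, each cell was scaled to 10000 UMIs and logged. Clusters were found with scanpy 1.11.5 (2000 variable genes without the members, 30 components, 20 neighbours, Leiden resolution 0.8, 0.6 for sub-clusters). A cluster was named from fixed markers, and 2 stayed unnamed. Raw counts were summed per class and library, and a gene was compared where a class held 50 UMIs. Named with values was every member in its highest class, except that Adamts6 and Adamts10 have a margin only. So was every member with 50 UMIs in FAP-like and macrophage/monocyte-like cells (ratios for the 10 highest and those past 1.5-fold). In other classes the 3 highest and those past 1.5-fold with an interval that left out 1 were named. Intervals are exact (Poisson, binomial and conditional binomial). Ratios were tested on simulated Poisson counts, the model that the intervals assume, so that test does not cover counts held by few cells. Alternatives were other filters, doublet handling, resolutions, scalings and minimums.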

Additional observations from a re-analysis of the deposited data

Results flagged for a closer look

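For Adamts5, Mmp9, Mmp14, Adamts7 and Mmp12 a ratio was past 1.5-fold in opposite directions in 2 cell classes, each with an interval that left out 1. Myocyte-like cells, which were drawn from their clusters in different shares in each library, were left out. With them, Timp2 with rMETRNL (1.91 in myocyte-like and 0.57 in dendritic-like cells) and Mmp14 with age (2.73 in myocyte-like and 0.58 in endothelial-like cells) also met this. With 1 library per group these differences between classes were not tested. UMIs are given for the numerator and then the denominator of a ratio. Adamts5 was higher in old PBS than in young PBS in FAP-like cells (1.82) and lower in tenocyte-like cells (0.52, 129 and 542 UMIs). Mmp9 with age was higher in MuSC/myoblast-like cells (2.69, 40 and 34 UMIs) and lower in macrophage/monocyte-like cells (0.031). With rMETRNL it was higher in macrophage/monocyte-like cells (2.13) and lower in MuSC/myoblast-like cells (0.34, 31 and 40 UMIs). Mmp14 with rMETRNL was higher in endothelial-like cells (2, 1366 and 388 UMIs) and lower in dendritic-like cells (0.56, 81 and 94 UMIs). Adamts7 with rMETRNL was higher in endothelial-like cells (1.93, 309 and 91 UMIs) and lower in MuSC/myoblast-like cells (0.64, 64 and 44 UMIs).

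Mmp12 did so in both comparisons. With age it was higher in macrophage/monocyte-like cells (1.52, but 1.01 with fixed sub-cluster weights) and lower in pericyte/smooth muscle-like cells (0.026). There 1 cell held 100% of the young PBS UMIs, so no ratio can be formed without it. The opposite directions with age therefore rest on that cell. With rMETRNL it was higher in tenocyte-like cells (3.04), where 1 cell held 39.5% of 38 UMIs, and lower in endothelial-like cells (0.048), where 1 cell held 94.8% of the old PBS UMIs and the ratio without the cell with the most UMIs in each library was 0.88.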

How the results depend on the processing

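No paired analysis was possible because each group is 1 library, and for the same reason no replicate could be left out. The number of members highest in macrophage/monocyte-like cells was 4 in all settings, and that in FAP-like cells was 8 to 10. For 27 of 39 members the highest class was the same in all 8 other settings. A called ratio was followed only in the settings where it could be formed, 8 to 15 of them, fewest for low counts. Of 40 called ratios in these 2 classes, 34 kept their direction and 21 stayed past 1.5-fold in all such settings. Among the 21 were Adamts4 with age in FAP-like cells (1.82 to 2.39) and Mmp19 in macrophage/monocyte-like cells (2.25 to 3.38 with age, 0.37 to 0.50 with rMETRNL). Also among them was Adamts7 in macrophage/monocyte-like cells, followed in 8 settings, whose interval held 1. Thinning to 2000 UMIs a cell, which left fewer members to compare, gave 7 in place of 13 calls with age and 6 in place of 10 with rMETRNL in FAP-like cells, and 6 in place of 10 with age in macrophage/monocyte-like cells. There a minimum of 200 UMIs gave 6 calls with age and 4 (in place of 7) with rMETRNL, and no minimum, with 0.5 added to each count, gave 18 and 12. The mean of CPM per cell gave 15 with age and 11 with rMETRNL. The single-cell gates reversed Mmp13 in FAP-like cells in both comparisons (0.78 and 2.09). With rMETRNL they reversed Mmp3 (2.42) and Timp3 (1.01) in macrophage/monocyte-like cells. There they gave 5 higher and 9 lower with age, and 8 and 2 with rMETRNL. The gate for FAP cells also took Mmp3 with age to 1.28. Keeping the called doublets reversed Mmp10 (0.77) and Mmp12 (1.004) with rMETRNL in FAP-like cells. Mmp12 with age in macrophage/monocyte-like cells was under 1.5-fold with doublets kept, at resolution 1.6 and with fixed sub-cluster weights (1.01). Mmp9 there ranged from 0.025 to 0.13. The fixed sub-cluster weights and the runs without single cells or small sub-clusters were chosen after seeing the data. The cause of these changes was not tested. Members just over the minimum of 50 UMIs rest on few UMIs in each library, and 1 library per group leaves the spread between animals unknown.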

Other observations

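Classes too small to compare held some members at high levels. In 60 neutrophil-like cells (12 young PBS, 15 old PBS and 33 old rMETRNL), pooled, Mmp9 stood at 483 CPM on 80 UMIs (11, 29 and 40) and Mmp8, known as neutrophil collagenase, at 84.5 CPM on 14 UMIs. In 155 Schwann/glial-like cells Timp3 stood at 809 CPM and Mmp17 at 110.5 CPM. Mmp12 stood at 248 CPM in the same cells, with 243 UMIs in old PBS, 2 in old rMETRNL and 0 in young PBS.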
